A study of Mus musculus with 12 samples.

Results

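Small resting Rag-positive pre-B cells were sorted out of single-cell RNA-seq of 12 neonatal mouse livers by their own transcripts. A cell was kept when it held 500 to 50000 UMIs (unique molecular identifiers, each counting 1 captured RNA molecule) and at most 20% mitochondrial UMIs. A kept cell was a member when it had at least 1 UMI of Rag1 and Rag2 together, at least 2 of Cd79a, Cd79b and Vpreb3, at most 2 of Igll1 and Vpreb1, and none of Top2a, Mki67, Ighd, Cd3e, Lyz2, Stab2 or C1qa. The rule found 1996 members among 202557 kept cells, with 1283 in 6 control livers and 713 in 6 anemic livers. These genes chose the members, so their levels are a description and carry no test.

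The study asked how phlebotomy-induced anemia changes cells of the neonatal liver. All 12 animals were C57BL6/J pups whose livers were taken on postnatal day 11, as 1 library per animal. The anemia pups lost 20 µL of blood per g of body weight by facial vein phlebotomy on every second day from day 2 to day 10, which was meant to bring the hematocrit to 20% to 24%. The control pups were not bled and received a daily needle stick instead. Phlebotomy removes whole blood, so lost red cells and lost plasma or white cells cannot be told apart in this model. The labels give the same batch for all 12 libraries and no litter for any pup.

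The fetal and neonatal liver is a site of B lymphopoiesis. A pre-B cell that has assembled a heavy chain pairs it with the surrogate light chain, encoded by Igll1 and Vpreb1, and divides. It then leaves the cell cycle, becomes small, and re-expresses the RAG recombinase to rearrange its light chain genes, usually kappa before lambda. A B cell with a working receptor lowers Rag expression, and later adds Ighd, the constant region of IgD.

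Depth ran from 46252146 to 74545930 UMIs per library, over 14389 to 21202 barcodes. Y-linked and Xist RNA put 4 control and 2 anemic pups as female. Of the 202557 kept barcodes, 9664 occurred in at least 2 libraries. Of the 1996 member barcodes, 96 were a kept barcode of another library, and 2 of them were members in both.

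For comparison, all 37167 B-lineage cells (at least 2 UMIs of Cd79a, Cd79b and Vpreb3, none of the 4 genes of other lineages) were put into 5 classes in a fixed order. They held 3730 surrogate light chain cells (over 2 UMIs of Igll1 and Vpreb1), 8222 cycling cells (at least 1 UMI of Top2a or Mki67), 4755 Ighd-positive cells, the 1996 members, and 18464 other resting cells in which no Rag UMI was seen.

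The members sat at the lower limit of the rule for Rag. A single Rag UMI was present in 1701 of them, and 295 had 2 or more. Rag1 alone was seen in 1712 members, Rag2 alone in 237 and both in 47. The nearest cells on the other side, the 18464 other resting cells, differed only in having 0 Rag UMIs and had a median of 1370 UMIs per cell against 1380 in members. A cell that expresses Rag may therefore be counted there when none of its Rag RNA was captured. On the remaining edges, 106 cells failed only by 1 UMI of Top2a or Mki67, 189 only by 1 UMI of Ighd, 112 only by 1 UMI of Cd3e, Lyz2, Stab2 or C1qa, 92 only by having 1 UMI of Cd79a, Cd79b and Vpreb3, and 27 only by 3 UMIs of Igll1 and Vpreb1. In cells that should lack Rag, 0.061% of 13204 C1qa-positive cells (median 6223 UMIs) and 0.12% of 19222 Stab2-positive cells (median 4073 UMIs) had a Rag UMI.

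Rag1 and Rag2, the partners of the recombinase, lie beside each other on chromosome 2 of GRCm38 and are read in opposite directions, Rag2 from 101624718 to 101632529 on the plus strand and Rag1 from 101638282 to 101649501 on the minus strand. Vpreb3, a B-lineage protein that associates with immunoglobulin chains during their assembly, lies on chromosome 10 from 75943057 to 75949657 on the plus strand. The 3 RefSeq promoters of GRCm38.p6, from 250 bases before to 50 after the transcript start, are shown because these genes define the class. Rag1 is chr2:101649483-101649782 (minus strand), Rag2 is chr2:101624462-101624761 (plus strand) and Vpreb3 is chr10:75948050-75948349 (plus strand). Capitals mark the octamer (ATTTGCAT or its reverse complement ATGCAAAT, letters bound by Oct factors) and an E box (CAGGTG or its reverse complement CACCTG, letters bound by E proteins such as Tcf3).
Rag1: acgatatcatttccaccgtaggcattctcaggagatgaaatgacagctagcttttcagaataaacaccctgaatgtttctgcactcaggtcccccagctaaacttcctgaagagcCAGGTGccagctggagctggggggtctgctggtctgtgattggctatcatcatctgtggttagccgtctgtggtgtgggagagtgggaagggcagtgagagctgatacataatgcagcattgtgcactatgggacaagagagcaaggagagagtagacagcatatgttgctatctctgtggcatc
Rag2: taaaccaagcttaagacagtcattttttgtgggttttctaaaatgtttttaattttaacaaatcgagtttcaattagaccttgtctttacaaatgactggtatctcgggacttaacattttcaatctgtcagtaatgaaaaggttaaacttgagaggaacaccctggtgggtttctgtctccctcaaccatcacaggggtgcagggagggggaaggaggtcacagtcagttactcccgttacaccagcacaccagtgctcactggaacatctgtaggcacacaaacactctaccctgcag
Vpreb3: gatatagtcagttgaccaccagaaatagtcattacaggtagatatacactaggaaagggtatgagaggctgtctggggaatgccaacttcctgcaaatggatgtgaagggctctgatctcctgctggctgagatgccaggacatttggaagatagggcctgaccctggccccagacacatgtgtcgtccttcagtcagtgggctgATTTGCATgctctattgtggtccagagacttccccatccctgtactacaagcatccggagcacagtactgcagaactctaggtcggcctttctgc
The Rag1 window held 1 E box and no octamer, the Vpreb3 window 1 octamer and no E box, and the Rag2 window neither. Among 32544 promoter windows of the same length, 1.75% held the octamer and 20.3% the E box. A match of letters is a description of the window and not a binding site.

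In members, Rag1 reached 638 ± 75.6 CPM (UMIs per 1000000 UMIs of the class, mean ± SD over 12 mice) and Rag2 93.5 ± 21.0 CPM. By comparison, surrogate light chain cells had 43.2 ± 13.6 CPM of Rag1 and cycling cells 23.2 ± 5.17 CPM. The rule sets this gap, since each member had to hold a Rag UMI and cells of these 2 classes did not. Vpreb3 was at 1383 ± 149 CPM, Cd79a at 1156 ± 76.4 CPM and Cd79b at 1961 ± 249 CPM, the last 2 being the signalling chains of the pre-B and B cell receptors. Rag1 ranged from 628 to 727 CPM in controls and from 495 to 715 CPM in anemia, and Rag2 from 71.4 to 126 CPM and from 62.1 to 131 CPM. The groups overlapped for both genes.

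The genes outside the rule matched the name of the class in most respects. The cut on Top2a and Mki67 also bears on other cell cycle genes, so the levels of those genes are a description. Pcna, the replication clamp, was at 49.2 ± 20.9 CPM in members against 338 ± 43.1 CPM in cycling cells and 60.8 ± 13 CPM in Ighd-positive cells. Cdk1, the mitotic kinase, was at 3.48 ± 4.59 CPM against 282 ± 32.2 CPM in cycling cells. Members had a median of 1380 UMIs per cell, against 3332 in cycling and 3526 in surrogate light chain cells. The median was 1370 in other resting and 1516 in Ighd-positive cells. The classes were cut on UMI counts, which itself sorts cells by depth, so these medians are no separate measure of cell size. Il2ra, which encodes CD25 and is a textbook surface marker of small pre-B cells, was at 147 ± 30.9 CPM in members, 63.0 ± 18.3 CPM in other resting cells, 32.0 ± 9.44 CPM in cycling cells and 6.22 ± 3.06 CPM in surrogate light chain cells. Btg2, an antiproliferative gene, was at 443 ± 116 CPM in members and 156 ± 18.2 CPM in cycling cells.

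The mature B cell program was low against Ighd-positive cells. The cut on Ighd bears on this contrast, so the levels are a description. The 6 naive B cell markers summed to 2379 CPM in members and 22905 CPM in Ighd-positive cells. They summed to 412 CPM in surrogate light chain, 3721 CPM in cycling and 14722 CPM in other resting cells. Cd74, the invariant chain of MHC class II, was at 2219 ± 528 CPM in members against 20521 ± 3339 CPM in Ighd-positive cells. Ms4a1, which encodes CD20, was at 86.3 ± 43.0 CPM against 689 ± 90.1 CPM. Fcer2a, the CD23 gene, was at 2.01 ± 3.07 CPM against 83.6 ± 26.6 CPM, and Cr2 and Jchain, a gene of antibody-secreting cells, had no UMI in any member. Other plasma cell markers were present. Jchain, Xbp1, Sdc1 and Prdm1 summed to 68.6 CPM in members and to 59.0 to 162 CPM in the other classes. Of the defining markers of other cell types, those in the rule (Cd3e, C1qa, Lyz2 and Stab2) and Cd8b1 were at 0. The immature T cell list of Cd8b1, Ptcra and Cd1d1 summed to 57.7 CPM in members, above the 25.7 to 40.0 CPM of the other classes. The summed level of the 6 hepatocyte markers ran from 4424 to 8891 CPM in controls and from 885 to 17815 CPM in anemia. That of the 6 erythroid markers ran from 925 to 27189 CPM and from 8507 to 73979 CPM, and the 5 neutrophil markers from 38.4 to 744 CPM and from 41.6 to 1415 CPM.

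**Figure D1:**
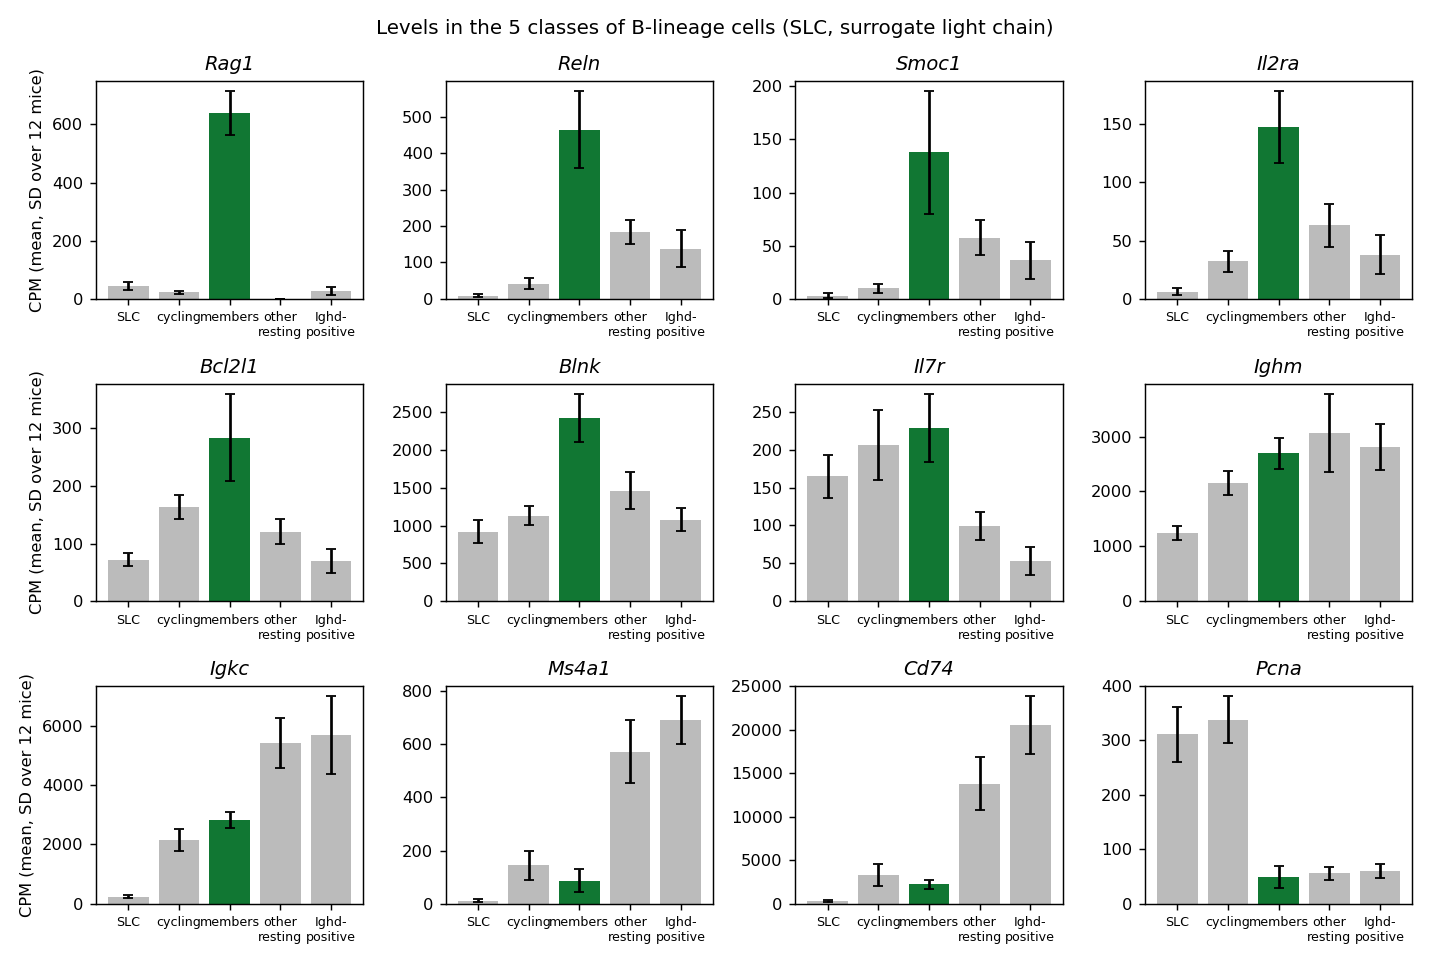
Levels of 12 genes in the 5 classes of B-lineage cells, in CPM on linear axes that start at 0, with bars for the mean and whiskers for the SD over 12 mice. Members, in green, had the highest mean of Reln, Smoc1, Il2ra, Bcl2l1 and Blnk, while Cd74 and Ms4a1 were highest in Ighd-positive cells.

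Beside Rag1 and Rag2, a group of genes stood higher in members than in the pool of all other B-lineage cells in each of the 12 mice. The comparison is a description, because the members were chosen by transcripts of the same cells. The pool sums UMIs over the other classes, so deep and numerous cells weigh most. Cycling cells gave 32164320 UMIs, other resting cells 29222445, surrogate light chain cells 19824572 and Ighd-positive cells 8441235. The ratios therefore also set resting cells against dividing ones, and are not ratios to other resting cells. Reln, a large secreted glycoprotein best known from the developing brain, was at 465 ± 105 CPM in members against 90.2 CPM in the pool, a ratio of 5.15. Smoc1, a secreted calcium-binding protein, was at 138 ± 57.5 CPM, a ratio of 5.18. Rgs16, a brake on G protein signalling, was at 81.6 ± 30.5 CPM, a ratio of 5.01, and Il2ra had a ratio of 4.01. Cacna1e, a voltage-gated calcium channel, was at 496 ± 78.6 CPM, Mast4, a kinase, at 1183 ± 242 CPM and Socs1, an inhibitor of cytokine signalling, at 300 ± 145 CPM, with ratios of 3.46, 3.33 and 3.25. Among the 12 genes of the highest ratio at 20 CPM or more in members, 4 came mostly from 1 mouse. All 97 UMIs of Gm35533 were in 1 cell of control 2, 90.7% of the 54 Il1rn UMIs in anemia 2, and 64.4% of Apoa4 and 77.8% of Serpina3k UMIs, both hepatocyte genes, in anemia 5.

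Regulators of the B lineage and of the receptor were higher in members than in cycling and Ighd-positive cells. Other resting cells, the class nearest to members, are not compared gene by gene here. The 6 B-lineage markers, which include Cd79a and Cd79b of the rule, summed to 13789 CPM in members and 11227 CPM in other resting cells. They summed to 10160 CPM in Ighd-positive and 7831 CPM in cycling cells. Ebf1, which specifies the lineage, was at 9876 ± 1081 CPM against 5176 ± 468 CPM in cycling cells and 5909 ± 398 CPM in Ighd-positive cells. Bach2, a repressor of plasma cell fate, was at 7296 ± 659 CPM against 3453 ± 372 CPM and 3390 ± 261 CPM, and Foxo1, an activator of Rag transcription, at 661 ± 57.9 CPM against 313 ± 18.3 CPM and 526 ± 48.8 CPM. Blnk, the adaptor that carries the pre-B cell receptor signal, was at 2420 ± 321 CPM against 1133 ± 128 CPM and 1079 ± 149 CPM. Syk, the kinase upstream of it, was at 1046 ± 104 CPM against 670 ± 61.6 CPM and 804 ± 88 CPM. The survival genes were split. Bcl2l1, which encodes Bcl-xL, was at 284 ± 75.9 CPM in members and 69.8 ± 21.6 CPM in Ighd-positive cells, whereas Bcl2 was at 9.77 ± 8.34 CPM and 71.2 ± 31.4 CPM.

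Among the genes that join broken DNA ends, Xrcc6, which encodes Ku70, was at 549 ± 63.3 CPM in members, 249 ± 40.9 CPM in cycling cells and 120 ± 34.9 CPM in Ighd-positive cells. Polm, a polymerase that acts at light chain joints, was at 105 ± 17.5 CPM, 52.4 ± 8.54 CPM and 48.3 ± 8.80 CPM. Dntt, the template-free polymerase of heavy chain joints, was at 20.2 ± 35.4 CPM in members and 164 ± 38.2 CPM in surrogate light chain cells. Il7r, the receptor for the main growth factor of pro-B and pre-B cells, was at 228 ± 45.2 CPM in members, 206 ± 46.3 CPM in cycling cells and 53.4 ± 18.4 CPM in Ighd-positive cells, so its level in members and in cycling cells was not separated beyond the spread. The homing receptor Ccr7 was at 76.3 ± 22.3 CPM in members and 319 ± 37.6 CPM in Ighd-positive cells.

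Light chain RNA was present in most members and at a low level. Igkc, the kappa constant gene (chromosome 6, 70726435 to 70726966, plus strand), was at 2830 ± 268 CPM in members. It was at 229 ± 52.4 CPM in surrogate light chain cells, 2161 ± 366 CPM in cycling cells and 5681 ± 1314 CPM in Ighd-positive cells. No Igkc UMI was seen in 457 of 1996 members (22.9%), 292 had 1, 630 had 2 to 4, 536 had 5 to 19 and 81 had 20 or more. At a near equal depth, 13.3% of other resting cells had no Igkc UMI and 10.8% had 20 or more. An Igkc UMI occurred in 77.1% of members, in 6.79% of C1qa-positive cells and in 5.76% of Stab2-positive cells, which were deeper. Lambda constant RNA of at least 5 UMIs was found in 117 members, 27 of which also had at least 5 UMIs of Igkc.

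**Figure D2:**
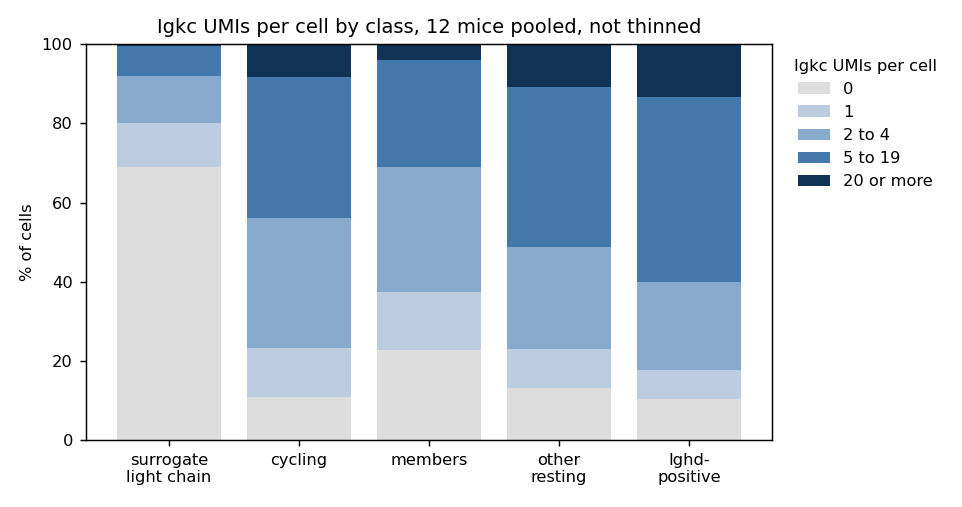
Share of cells (%) by the number of Igkc UMIs in each class of B-lineage cells, with the 12 mice pooled and cells not thinned, so that classes of deeper cells are favoured. The members had 22.9% of cells without an Igkc UMI and 4.06% with 20 or more, between surrogate light chain cells and other resting cells.

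UMIs of Igkv genes, the kappa V genes, can come from joined or from unjoined copies. Members held 559 of them, from 53 of the 160 Igkv genes in the files, where surrogate light chain cells had 427 from 40 genes and other resting cells 3920 from 115. The level in members was 173 ± 41.8 CPM, against 69.6 ± 9.32 CPM in cycling cells and 124 ± 45.1 CPM in Ighd-positive cells. Igkv1-135 (chromosome 6, 67609713 to 67610508) gave 162 of them, 29.0% of the Igkv UMIs in members, against 12.7% in cycling, 20.6% in other resting and 14.7% in Ighd-positive cells. It was followed by Igkv1-35 with 71 UMIs, Igkv1-110 with 66 and Igkv1-117 with 50. V genes of a family share sequence, and reads may be split between near copies.

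Anemic livers held fewer members per kept cell. Members made up from 1.11% to 1.55% of kept cells in the 6 controls (median 1.35%) and from 0.266% to 1.08% in the 6 anemic livers (median 0.629%). The highest anemic liver was below the lowest control. The mean was 1.34% ± 0.18 (SD, n = 6) in controls and 0.674% ± 0.297 in anemia. The exact two-sided permutation test over the 924 splits of 6 against 6 mice gave p = 0.00216, the smallest it can give, and adjusted p = 0.0152 over 7 shares. Sex was unbalanced, with 4 female controls and 2 female anemic livers. Since the groups did not overlap, any split by sex must show the same separation, so such a split carries no information on sex. The part of sex in this share was not tested. In a further setting, cells of at least 1000 UMIs were thinned to 1000 UMIs, and shallower cells were left out of members and kept cells alike. The difference was then -0.555 percentage points, with the same exact permutation p. In this assay, a lower share of captured cells cannot be told apart from fewer cells in the organ.

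The share was also taken of kept cells that were not erythroid (adult globins under 10% of UMIs and erythroid marker genes under 2 UMIs). It ran from 1.28% to 1.61% in controls (median 1.42%) and from 0.294% to 1.36% in anemia (median 0.788%). In 5 of 6 anemic livers it was below every control, and the means were 1.44% ± 0.14 and 0.872% ± 0.394 (exact permutation p = 0.00866, adjusted p = 0.0202). This call was lost when at least 2 Rag UMIs were required (means 0.214% and 0.135%, exact permutation adjusted p = 0.152) or 4 UMIs of Cd79a, Cd79b and Vpreb3 (1.21% and 0.774%, exact permutation adjusted p = 0.114). With 2 Rag UMIs the call on all kept cells was lost as well (0.198% and 0.102%, exact permutation adjusted p = 0.053). All B-lineage cells made up 23.2% ± 2.68 of kept cells in controls and 14.1% ± 2.97 in anemia.

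**Figure D3:**
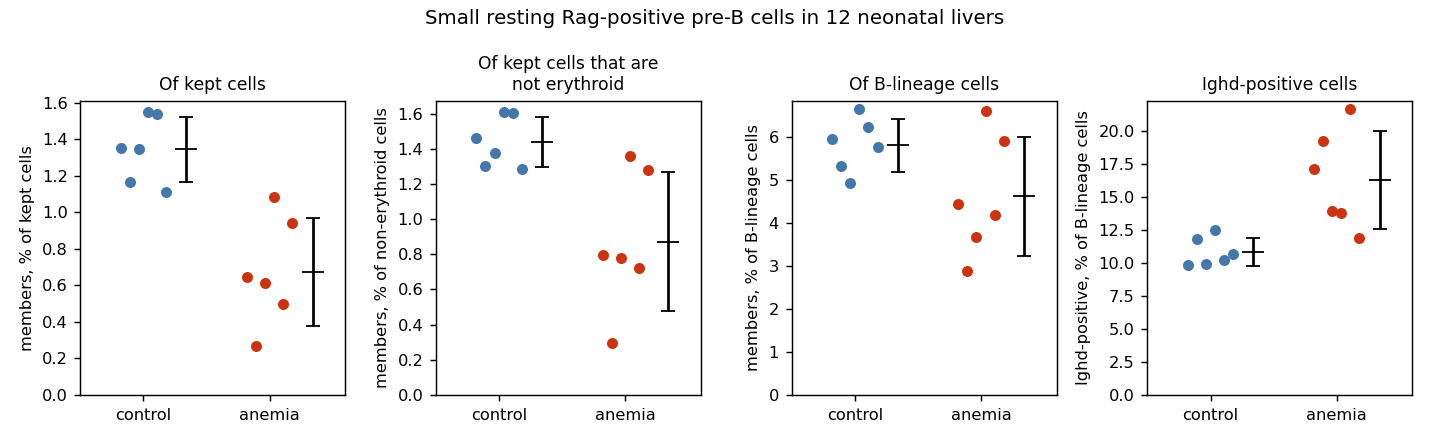
Members as % of kept cells, of kept cells that are not erythroid and of B-lineage cells, and Ighd-positive cells as % of B-lineage cells, with 1 point per mouse and the mean ± SD of 6 mice beside the points. The 6 anemic livers lie below all controls in the panel of kept cells (0.266% to 1.08% against 1.11% to 1.55%), and overlap with them in the panel of B-lineage cells.

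Within the B lineage, the members' share was not separated between the groups. It ran from 4.94% to 6.66% of B-lineage cells in controls (median 5.86%) and from 2.89% to 6.60% in anemia (median 4.32%). The difference of means, 5.81% ± 0.62 against 4.62% ± 1.39, had an exact permutation p of 0.132 and an adjusted p of 0.185. The class after them took a higher share, since Ighd-positive cells were 10.8% ± 1.08 of B-lineage cells in controls and 16.3% ± 3.72 in anemia (exact permutation p = 0.00433, adjusted p = 0.0152, 5 of 6 anemic livers above every control). Cycling cells were 24.2% ± 2.37 and 18.9% ± 4.67 (exact permutation adjusted p = 0.163). These shares have a denominator that was itself lower in anemia. Of all kept cells, Ighd-positive cells were 2.50% ± 0.309 in controls and 2.22% ± 0.319 in anemia (exact permutation p = 0.18, adjusted p = 0.18 over 5 classes). By the same measure, chosen after the shares had been seen, cycling cells were 5.63% ± 0.953 and 2.73% ± 0.993 and other resting cells 11.4% ± 1.41 and 7.02% ± 1.40 (exact permutation adjusted p = 0.00361 each), and surrogate light chain cells 2.27% ± 0.316 and 1.45% ± 0.634 (exact permutation adjusted p = 0.0189).

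The number of members was also set against that of the other classes of the same livers. There were 24.2 ± 3.10 members per 100 cycling cells in controls and 24.4 ± 4.26 in anemia, a difference of 0.271 (exact permutation p = 1, adjusted p = 1, over 4 ratios). Per 100 Ighd-positive cells, members ran from 45.3 to 61.0 in controls (median 53.7) and from 15.0 to 49.7 in anemia (median 26.2). The means of this ratio were 54.1 ± 6.14 and 30.7 ± 14.6 (exact permutation p = 0.00866, adjusted p = 0.0346), and 4 of 6 anemic livers lay below every control. This call was lost under 6 other settings, the replicate block among them. It was also lost without control 1, 3, 4, 5 or 6 or anemia 1, 2, 3 or 5, where each fit gave an exact permutation adjusted p of 0.0693. Per 100 surrogate light chain cells, there were 59.8 ± 9.39 members in controls and 48.5 ± 12.2 in anemia (exact permutation adjusted p = 0.32). Among resting cells without an Ighd UMI, members were 10.6% ± 1.30 and 8.55% ± 2.86 (exact permutation p = 0.24, adjusted p = 0.32). The ratios were not tested against each other. These ratios were added after the shares had been seen.

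The light chain and cytokine receptor readouts of the members were compared at a common depth of 1000 UMIs, which left out 166 control and 59 anemia members with fewer UMIs. Igkc was detected in 71.6% to 76.2% of members in controls (median 73.8%) and in 65.0% to 74.3% in anemia (median 69.7%), and 5 of 6 anemic livers were below every control, in 1 random thinning. The means, 73.8% ± 2.21 and 69.5% ± 3.32, did not pass the adjustment over 4 readouts (exact permutation p = 0.0152, adjusted p = 0.0606), and the mean over all possible thinnings, 73.7% ± 1.71 and 70.6% ± 2.44, put 3 of 6 below every control (difference -3.10, exact permutation p = 0.0649, adjusted p = 0.26). Without thinning the means were 77.2% and 76.7%. Il7r was detected in 18.5% ± 1.79 and 20.4% ± 4.50 of members in the same thinning, in 19.1% ± 2.05 and 19.4% ± 4.68 as the mean over all thinnings (difference 0.325, exact permutation p = 0.589), and in 24.3% and 29.7% without thinning. Median UMIs per member were 1335 ± 83.8 and 1449 ± 195, and median genes 828 ± 40.8 and 879 ± 92.6. None of these 3 passed (exact permutation adjusted p = 0.31 each).

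Gene expression of the members was compared by summing their UMIs per mouse and fitting 6136 genes with at least 5 UMIs per mouse on average (edgeR quasi-likelihood, Benjamini-Hochberg). With 47 to 247 members per mouse, the fit passed 6 genes at an adjusted p under 0.05, 0.0978% of those tested. Of these, 3 (0.0489%) were higher and 3 (0.0489%) lower in anemia, and 463 genes (7.55%) were under an unadjusted p of 0.05. Genes whose 6 anemic livers did not overlap the 6 controls numbered 33, 0.538% of those tested, with 10 (0.163%) higher and 23 (0.375%) lower in anemia. In simulated counts of the same depth, 77 of 95 genes changed 2-fold and 89 of 91 changed 4-fold were recovered among 5928, with 6 false calls. The simulation held many more changed genes than the 6 called here, which makes the adjustment more lenient. It also held no contaminating RNA that differs between mice, so recovery may be lower in the real fit.

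Eno1 and Gapdh, enzymes of glycolysis, were higher in anemia. Eno1 ran from 99.3 to 155 CPM in controls (median 118) and from 140 to 292 CPM in anemia (median 189). The anemic livers were above every control in 5 of 6 mice, and the log2 fold change was 0.78 ± 0.17 (SE, edgeR adjusted p = 0.0469). Gapdh ran from 520 to 748 CPM (median 600) and from 682 to 1057 CPM (median 897), with 4 of 6 anemic livers above every control and a log2 fold change of 0.55 ± 0.12 (edgeR adjusted p = 0.0495). Eno1 shares 99.5% of 1736 aligned bases with its near copy Eno1b, which was at 0 to 5.97 CPM in any mouse, and Gapdh has many processed copies in the genome.

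Of the 21 tested genes of the hypoxia and glycolysis list, these 2 were called, and 20 had a positive log2 fold change. Over all 6136 genes tested, 3132 were positive and 3004 negative. The median of the list was 0.42 on the log2 scale, beside 0.01 over all genes. Pgk1, a glycolytic kinase, was at 102 ± 16.3 and 149 ± 27.4 CPM (log2 fold change 0.55, edgeR adjusted p = 0.356) and Bnip3, a mitophagy gene induced by low oxygen, had a log2 fold change of 0.71 (edgeR adjusted p = 0.485). Slc2a1, Kdm3a and Hif1a had log2 fold changes of 0.06, 0.08 and 0.09. Among the 1772 members in which globin, hepatocyte and myeloid RNA made up at most 2% of UMIs, Eno1 had a log2 fold change of 0.67 (edgeR adjusted p = 0.0722) and Gapdh one of 0.27 (edgeR adjusted p = 0.418).

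Isg20, an exonuclease that is induced by interferon, ran from 0 to 27.2 CPM in controls (median 5.31) and from 23.9 to 58.0 CPM in anemia (median 37.8). It came from 66 UMIs in all, with 4 of 6 anemic livers above every control and a log2 fold change of 2.20 ± 0.46 (edgeR adjusted p = 0.0469). It was in the erythroid RNA list, whose 28 genes summed to 1658 to 27933 CPM in control members and 9317 to 75255 CPM in anemia members. Of the 15 tested genes of that list, Isg20 was the only called one and 14 had a positive log2 fold change, with a median of 1.37. In the other classes the same fit passed 14 of 12092 genes (0.116%) in cycling, 28 of 8943 (0.313%) in Ighd-positive, 211 of 12045 (1.75%) in other resting and 7 of 10619 (0.0659%) in surrogate light chain cells. Isg20 also had a log2 fold change of 1.86 in cycling cells (edgeR adjusted p = 0.016) and 1.67 in Ighd-positive cells (edgeR adjusted p = 0.0543). The part of erythroid RNA in this result was not tested.

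The 3 lower genes included transcripts of hepatocytes. Cyp2e1, a liver cytochrome P450, ran from 61.1 to 130 CPM in control members (median 94.9) and from 0 to 29.8 CPM in anemia (median 10.1), with no overlap and a log2 fold change of -2.90 ± 0.33 (edgeR adjusted p = 5.77e-07). Lect2, a protein secreted by hepatocytes, ran from 27.2 to 55.5 CPM (median 41.4) and from 0 to 12.5 CPM (median 9.28), also with no overlap, and had a log2 fold change of -2.11 ± 0.39 (edgeR adjusted p = 0.0109). Of the hepatocyte RNA list, which holds Cyp2e1 but not Lect2, 17 of its 29 tested genes had a positive and 12 a negative log2 fold change, with a median of 0.11. Its summed level in members was 9412 to 19158 CPM in controls and 2299 to 43956 CPM in anemia, the highest being anemia 5. By mouse it made up 0.941% to 1.92% of the members' UMIs in controls, and 0.230% to 0.849% in 5 anemic livers, each below every control, with 4.40% in anemia 5. Its part in the levels of Cyp2e1 and Lect2 was not tested. Among the members in which globin, hepatocyte and myeloid RNA made up at most 2% of UMIs, Cyp2e1 had a log2 fold change of -2.92 (edgeR adjusted p = 5.49e-06). This cut lies above the hepatocyte share of every control, so hepatocyte RNA at the level of controls can stay in that fit. Lect2 had no value in it. Cyp2e1 had log2 fold changes of -1.60 to -2.15 in the 4 other classes of B-lineage cells.

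Gm11808 ran from 133 to 281 CPM in controls (median 151) and from 80.0 to 109 CPM in anemia (median 92.2), without overlap, with a log2 fold change of -0.86 ± 0.19 (edgeR adjusted p = 0.0495). Its call is uncertain, because its reads may be split with a near-identical copy.

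**Figure D4:**
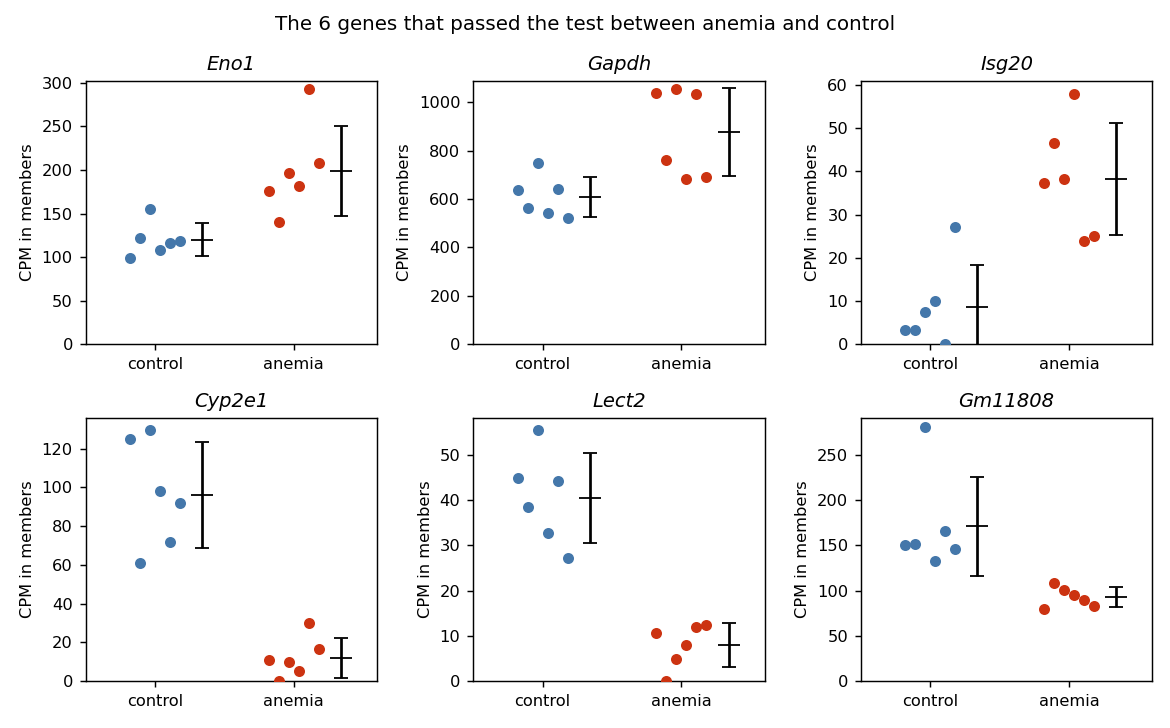
CPM in members of the 6 genes that passed the test, with 1 point per mouse and the mean ± SD of 6 mice beside the points, on linear axes from 0. Cyp2e1, Lect2 and Gm11808 do not overlap between the groups, while Eno1, Gapdh and Isg20 do.

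When each mouse was left out in turn, Cyp2e1 stayed called in 12 of 12 fits and Lect2 in 11 of 12, the exception being the fit without anemia 3. The other calls were lost in most fits. Isg20 passed only without control 6, anemia 5 or anemia 6, Gapdh only without control 3, anemia 4 or anemia 6, Eno1 only without control 3 or anemia 2, and Gm11808 only without control 4. The genes of lowest p that did not pass included Gclm, a subunit of the glutathione synthesis enzyme (32.4 ± 10.7 and 68.2 ± 13.5 CPM, log2 fold change 1.11, edgeR adjusted p = 0.086, no overlap), Ypel1 (30.3 ± 12.2 and 5.98 ± 5.50 CPM, log2 fold change -2.0, edgeR adjusted p = 0.086, no overlap) and Gk5, a glycerol kinase family member (63.4 ± 11.0 and 25.9 ± 14.7 CPM, log2 fold change -1.14, edgeR adjusted p = 0.122, no overlap).

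Of 29 tested B-lineage transcription factors none was called, where 0.0978% of all genes were, so that nothing can be read from this 0 or from those of the lists that follow. The median log2 fold change of the 29 was 0.07. Ebf1 was at 9796 ± 993 and 9955 ± 1254 CPM, with a log2 fold change of 0.04 ± 0.09. Pax5, the commitment factor, had a log2 fold change of 0.07, Foxo1 one of 0.03 and Bach2 one of 0.03. The lowest p of the list was that of Tcf4, an E protein, at 340 ± 30.8 and 472 ± 81.7 CPM (log2 fold change 0.47 ± 0.12, edgeR adjusted p = 0.139, 5 of 6 anemic livers above every control). Mef2c, a factor of pre-B survival, had a log2 fold change of 0.47 and Bcl11a one of 0.63, with edgeR adjusted p of 0.309 and 0.307.

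None of 24 tested pre-B and B cell receptor signalling genes, 21 cytokine and homing receptors or 5 immunoglobulin constant genes was called either. Their median log2 fold changes were 0.06, 0.19 and -0.09. Blnk was at 2593 ± 259 and 2248 ± 296 CPM (log2 fold change -0.19, edgeR adjusted p = 0.662) and Ptpn6, which encodes the phosphatase SHP-1, had a log2 fold change of 0.67 (edgeR adjusted p = 0.499). Il7r had a log2 fold change of 0.19 ± 0.15 and Il2ra one of -0.17 ± 0.17, with overlapping groups. Igkc and Ighm had log2 fold changes of -0.11 ± 0.09 and -0.09 ± 0.09. Iglc1, a lambda constant gene, was at 215 ± 49.9 and 336 ± 126 CPM (log2 fold change 0.60, edgeR adjusted p = 0.517). Of 19 mature B cell genes, 11 had a positive log2 fold change and none passed, Ms4a1 being at 62.7 ± 16.6 and 110 ± 49.7 CPM (log2 fold change 0.86, edgeR adjusted p = 0.307).

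Other lists moved little or without a call. In the interferon list, 16 of 18 tested genes had a positive log2 fold change (median 0.26) and none was called. Isg15 ran from 6.41 to 35.2 CPM in controls and from 20.8 to 426 CPM in anemia (log2 fold change 2.81, edgeR adjusted p = 0.415). Among immediate early and heat shock genes, 21 of 23 had a negative log2 fold change (median -0.19), with Hspa8, a chaperone, at 938 ± 150 and 738 ± 85.0 CPM (edgeR adjusted p = 0.394). Of 16 pro-B and cycling genes, 14 were negative (median -0.40), although Ccnd3, the D cyclin of pre-B cells, was at 581 ± 81.0 and 776 ± 116 CPM (log2 fold change 0.43, edgeR adjusted p = 0.139). No gene was called among 13 recombination, 24 quiescence, 6 BCL2 family, 24 respiratory chain, 4 cholesterol, 12 glucocorticoid, 9 stress response, 13 iron, 8 myeloid, 2 T and NK cell, 8 endothelial and stellate, 3 V or 5 sex-linked genes. Of the 9 tested genes that the study names for B cells, a list chosen on these samples, only Cyp2e1 was called.

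**Figure D5:**
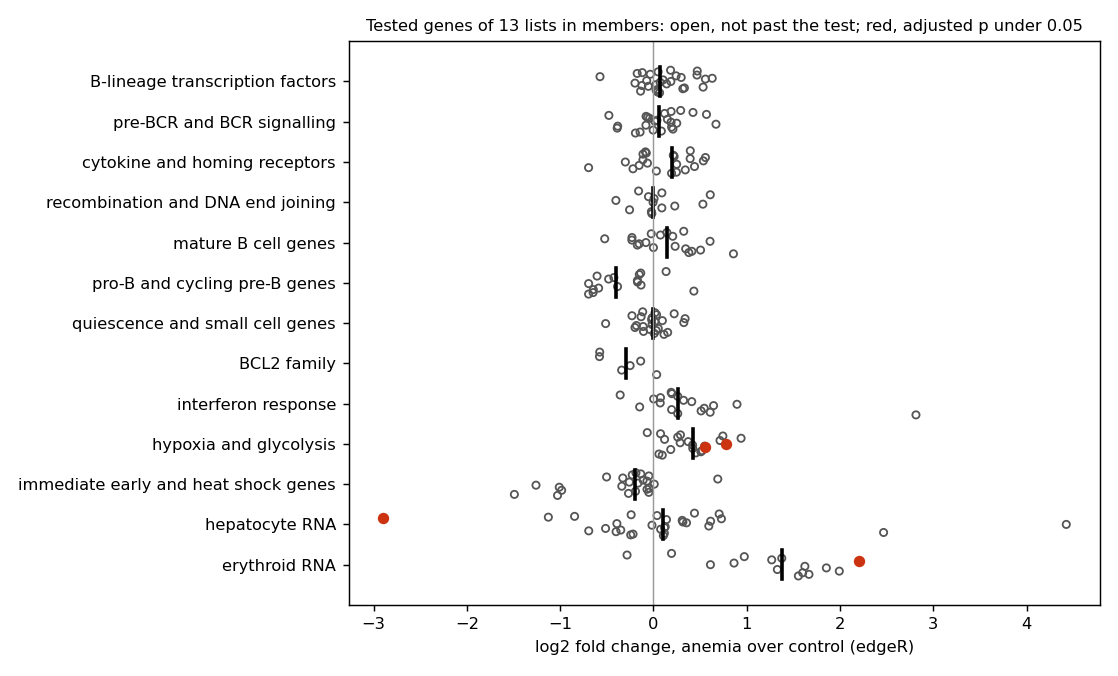
Log2 fold change in members, anemia over control, of each tested gene of 13 lists (edgeR), with open points for genes that did not pass, red points for the 4 listed genes with adjusted p under 0.05, and a bar for the list's median. The medians lie between -0.40 and 0.42 in 12 lists and at 1.37 for erythroid RNA.

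The effect of anemia was not shown to be particular to the members. The difference of the log2 fold change between members and Ighd-positive cells of the same mice passed in 0 of 6115 genes, and that between members and cycling cells in 0 of 6134 (edgeR, with the mouse as a block; 330 and 348 genes were under an unadjusted p of 0.05). For Eno1 the differences were 0.59 and 0.33 on the log2 scale (edgeR adjusted p = 0.734 and 0.957), and for Gapdh 0.30 and 0.32. In a simulation of the first comparison, 51 of 95 genes that differed 2-fold and 89 of 91 that differed 4-fold were recovered among 5909, with 13 false calls. Its many changed genes again make the adjustment more lenient than in the real fit, where recovery may be lower.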

How the data were processed

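Dissociated livers of 6 control and 6 anemic pups were profiled by 10x 3' single-cell RNA-seq, 1 library per mouse. The kit version is given differently in the labels and the design text. The authors deposited UMI counts per gene and barcode from Cell Ranger 7.0.0 (build mm10, 32285 genes, barcodes of at least 500 UMIs), not normalized and not annotated. The deposited features and barcodes carried no cell types, so cells were assigned by the UMI rule; the members and gene lists were chosen with earlier results of these data known. No doublet caller was run. The rule leaves out cells with UMIs of 4 markers of other lineages, but holds no hepatocyte, erythroid or neutrophil granule marker, so doublets with those cells were not removed.

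Shares and readouts per mouse were compared with an exact two-sided permutation test of ranks. UMIs of the members were summed per mouse and fitted with edgeR 4.0.16 (TMM, robust quasi-likelihood, genes with at least 5 UMIs on average), in which 6 of the 6136 genes belonged to the rule and were not read. The difference between classes was an interaction with mouse as a block. DESeq2 1.42.0 and limma 3.58.1 were alternatives. CPM are UMIs per 1000000 UMIs of the class, without TMM. The fits were tested on simulated counts. Genes were named when they belonged to the rule or to the transcription factor, receptor signalling, cytokine receptor or constant gene lists, passed the test or had the 5 lowest p in a direction, had the 4 lowest p of another list, were named by the study for B cells, or had the 12 highest ratios to other B-lineage cells; others were named after their values were seen, and a gene that the rule picks is not reported here. Coordinates are from GENCODE vM21 (GRCm38), promoters from RefSeq. Separate pups are the replicates; permutation and edgeR p-values measure the spread between these 12 libraries and the counting error of shallow cells.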

Additional observations from a re-analysis of the deposited data

Results flagged for a closer look

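Among 48 groups of 6 mice checked with Dixon's test, 2 held a mouse far from the others, and chance alone would flag about 1 in 20 groups. Gm11808 was at 281 CPM in control 3, with the other 5 controls between 133 and 166 CPM. The fit without control 3 no longer called it. This loss was not particular to control 3, since Gm11808 stayed called in only 1 of the 12 fits that left out a mouse. Isg20 was at 27.2 CPM in control 6, above the 0 to 10.1 CPM of the other 5 controls.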

How the results depend on the processing

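The 3 shares of members and the 4 readouts kept their direction under the alternatives run, as did the cycling and Ighd-positive shares, the members per 100 Ighd-positive or surrogate light chain cells and their share of resting Ighd-negative cells. Differences that did not pass changed sign for members per 100 cycling cells (-1.15 to 1.51) and for the surrogate light chain (-0.535 to 1.02) and other resting shares (-1.07 to 3.59). Thinning took the cycling share past the threshold (-6.10, exact permutation adjusted p = 0.0265). Members per 100 Ighd-positive cells no longer passed with thinning (-27.2), 2 Rag UMIs (-3.33), 4 UMIs of Cd79a, Cd79b and Vpreb3 (-26.5), a mitochondrial limit of 10% (-23.3) or without members of over 3 times the median UMIs (-23.1), and gave -27.1 to -20.2 when each mouse was left out. The alternatives for ratios and other classes were added after seeing the data. With at least 2 Rag UMIs required, which left 295 members, the difference was -0.0964 percentage points of kept cells (exact permutation adjusted p = 0.053) and -0.0792 of kept cells without erythroid cells (adjusted p = 0.152). Requiring 4 UMIs of Cd79a, Cd79b and Vpreb3 gave -0.434 of kept cells without erythroid cells (exact permutation adjusted p = 0.114). Replicate numbers are in the labels but did not pair the mice (correlations of same-numbered mice -0.0561 to 0.13, own number best in 2 of 6). With the replicate block, an exact sign-flip test gave the same differences, -0.67 and -0.567, at p = 0.0312, the smallest it can give, and adjusted p = 0.0729, as it did for the Ighd-positive share (5.46); members per 100 Ighd-positive cells gave -23.3 (exact adjusted p = 0.125), and edgeR called 16 genes, 9 higher and 7 lower, 6 of them among the 6 called without the block. Leaving out each mouse gave -0.752 to -0.589 for kept cells, -0.664 to -0.452 without erythroid cells and -1.59 to -0.849 for B-lineage cells; for Igkc detection it gave -5.28 to -3.44, and without anemia 6 this passed (exact permutation adjusted p = 0.0173).

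The count of 6 called genes depended on the settings. With 3 higher and 3 lower in the fit reported, it was 8 with DESeq2 (5 higher, 3 lower, 5 shared), 1 with limma voom, 4 with DESeq2 size factors (2 and 2) and 4 without TMM (1 and 3), 24 without the low count filter (10 and 14, 5 shared), 0 at a mean of 20 UMIs (209 of 2412 genes under an unadjusted p of 0.05), 3 with Y-linked RNA as a covariate, 2 at a mitochondrial limit of 10%, 0 with 2 Rag UMIs (73 of 1624 genes under an unadjusted p of 0.05), 9 in members with at most 2% contaminating RNA (1 higher, 8 lower, 2 shared) and 21 without members of over 3 times the median UMIs (6 and 15, 4 shared). Leaving out each mouse gave 1 to 8, with 1 to 3 called without control 1, 2, 4, 5 or 6 or anemia 1, 2 or 3; the cause was not tested. The difference from Ighd-positive cells gave 0 to 3 called genes when each mouse was left out, with 2 without control 3 or anemia 4 and 3 without anemia 6, and that from cycling cells 0. The number of cells, 47 to 247 per mouse, limits detection of low genes.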

Other observations

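The share of Igkv1-135 among the Igkv UMIs of members was 30.6% to 42.4% in the 6 controls (median 34.9%) and 14.3% to 25.0% in the 6 anemic livers (median 19.4%), so that the groups did not overlap. This V gene was singled out after its values were seen, and the shares rest on 33 to 78 Igkv UMIs per control and 11 to 64 per anemic liver, so no test was made of them. In the fit over all genes, Igkv1-135 was at 59.9 ± 18.9 and 35.2 ± 13.2 CPM in members (log2 fold change -0.71 ± 0.27, edgeR adjusted p = 0.512). Over the genes of that fit, 33 of 6136 (0.538%) did not overlap in CPM. The Igkv1-135 share was 18.4% to 26.6% in controls and 14.6% to 19.6% in anemia in other resting cells. In the same order, it was 10.6% to 17.8% and 3.39% to 12.7% in cycling cells. It was 6.47% to 23.9% and 8.41% to 23.3% in Ighd-positive cells, and 0% to 11.1% and 0% to 21.1% in surrogate light chain cells.

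Members with Rag2 UMIs only had an Igkc UMI in 87.3% of 237 cells, and members with Rag1 UMIs only in 75.6% of 1712 cells, at median depths of 1449 and 1368 UMIs. Members with 2 UMIs of Igll1 and Vpreb1 had one in 50.0% of 36 cells at a median of 1596 UMIs, and those with none in 77.6% of 1896 cells at 1372.5 UMIs. These shares pool the mice and carry no test.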
